A study of Mus musculus with 4 samples.

Results

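Leukaemia inhibitory factor (LIF) signalling was represented in the deposited m6A data by 10 regions under the gene symbols Lif, Lifr, Pim1 and Grb2, out of 6697 distinct regions under 3882 symbols. Every region with 1 of these 4 symbols was taken, whatever its counts. The 4 genes had been picked from a longer list of LIF genes for the size of their change in an earlier pass over the same data, so the size of their change is described here and not tested. All 4 NCBI gene identifiers were found in the RefSeq gene table of GRCm38.p6.

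The series holds 4 samples of mouse embryonic stem cells labelled E14K, a wildtype and a Gsk-3 DKO sample (double knockout, cells lacking both Gsk-3 kinases), each as an m6A immunoprecipitate and as an input of total mRNA. All cells, of both genotypes, were grown without feeders on gelatin in serum medium and went 14 days without LIF before RNA was taken. Each group had 1 library, so there is no replicate check of any difference below. How the knockout line was derived, and whether it is 1 clone, is not given in the sources used here.

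LIF is a secreted cytokine of the interleukin-6 family that keeps cultured mouse embryonic stem cells self-renewing. It binds a receptor made of Lifr and gp130 (encoded by Il6st), which activates JAK kinases and the transcription factor STAT3, and through the adaptor Grb2 also the Ras and MAP kinase branch. Pim1 is a serine/threonine kinase whose gene is a target of STAT3. N6-methyladenosine (m6A) is a methyl mark on mRNA, written by the Mettl3 and Mettl14 complex, that is known to be dense around stop codons and in 3'UTRs and to shorten the life of many transcripts. The comparison asks how m6A-marked mRNA differs between wild-type cells and cells without Gsk-3.

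Each region carries a read count for wild type and one for the double knockout. The column headings give only the genotype, and the counts were taken to be those of the m6A libraries, which the headings do not settle. No input count was used here, so less mRNA of a gene and less m6A on it cannot be told apart. In the whole table the double-knockout count was at or above the wild-type count in 0 regions, so the list holds 1 direction only, and the direction of change in any one gene says nothing particular about it. The rule by which regions entered the list is not known here. A fold is the wild-type count divided by the double-knockout count and multiplied by 0.825, the constant built into the deposited ratio. Intervals are exact 95% intervals of counting error only (Poisson for a count, Clopper-Pearson for a ratio of counts).

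All 10 regions had far fewer reads in the double knockout. Between 20 and 157 wild-type reads (median 57.5) stood against 0 to 7 in the double knockout (median 2.5). With a count of 0 set to a floor of 3 reads, 9 of the 10 regions were lower by at least 10-fold, against 52.5% of all listed regions. A double-knockout count of 0 was found in 1 of the 10, against 50.5% of all listed regions. Their median fold was 18.5, against 10.4 over all regions. Over the 9 regions with double-knockout reads the median was 18.6, against 13.6 over the 3315 such regions of the table. Because the genes were taken for large changes, nothing is read from the gaps between these shares or between these medians.

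**Figure D1:**
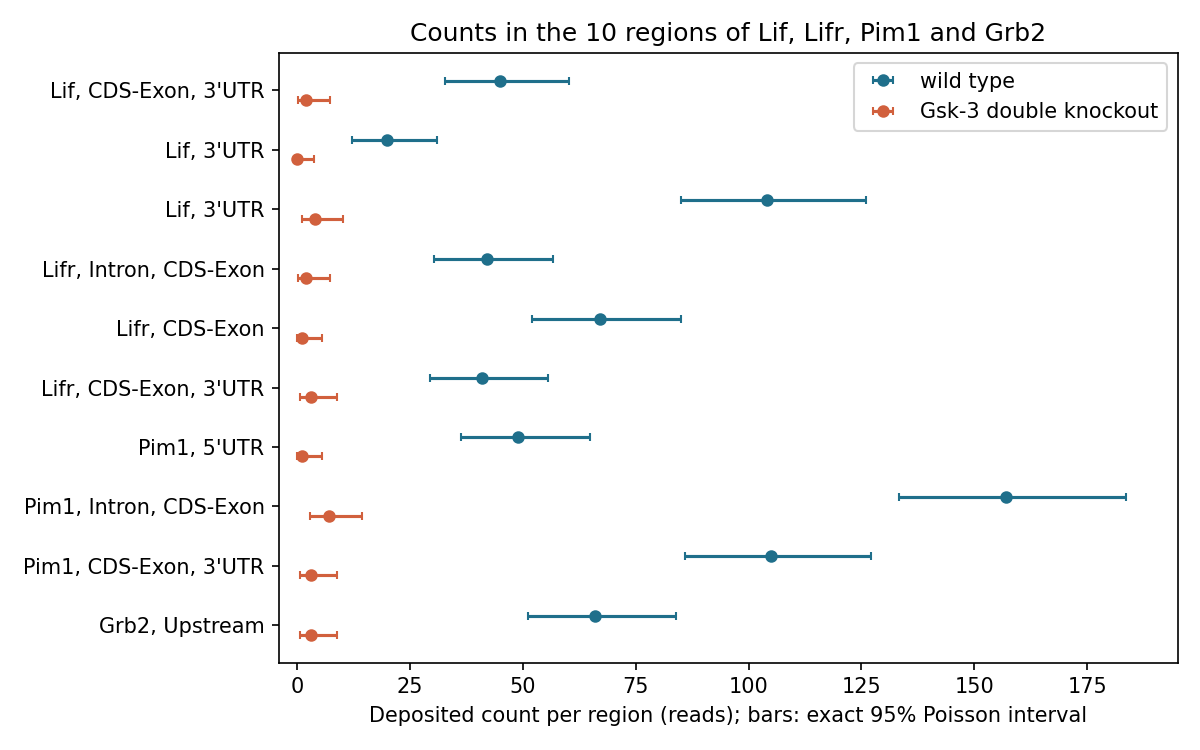
Deposited counts (x axis, reads) in each of the 10 regions (y axis, gene and the authors' overlap type), wild type in blue and double knockout in orange. Points are single libraries and bars are exact 95% Poisson intervals; every double-knockout point lies between 0 and 7 reads and every wild-type point between 20 and 157.

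Lif, the ligand, had 3 regions, all at the 3' end of its transcript NM_008501 on chromosome 11. The first (4269307 to 4269558, coordinates as deposited, which match GRCm38) covered the end of the coding sequence and the start of the 3'UTR, with 45 reads in wild type and 2 in the double knockout. That is an 18.6-fold difference with an interval of 4.85 to 158. The second (4269880 to 4270032) lay in the 3'UTR, 321 bases further on, with 20 reads against 0. At the floor of 3 reads it was 5.50-fold lower, with an exact interval from 4.07 and no upper limit. It was the thinnest of the 10 regions in reads. The third (4270817 to 4271075), also in the 3'UTR and 1439 bases before the end of the gene, was the deepest of the 3, with 104 against 4 (21.4-fold, 8.13 to 80.2). Of the table's regions 81.8% had a lower wild-type count than this one. Per base of region, wild-type reads were 0.179, 0.131 and 0.402 in 5' to 3' order, so the densest Lif region was the one farthest past the coding sequence.

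Lifr, the receptor chain that binds LIF, had 3 regions along transcript NM_013584 on chromosome 15. The first (7154410 to 7154640) crossed the border of a coding exon and an intron, 13983 bases after the transcription start used by the authors, with 42 reads against 2 (17.3-fold, 4.51 to 148). That start, at base 7140542, is 49932 bases inside the RefSeq extent of Lifr, which begins at base 7090610. The second (7190770 to 7190956) lay in coding sequence near the 3' end, with 67 against 1. Its fold of 55.3 was the highest of the 10 regions, but with 1 double-knockout read its interval ran from 9.58 to 2215. The third (7191004 to 7191229) began after a gap of only 47 bases and crossed from coding sequence into the 3'UTR, with 41 against 3 (11.3-fold, 3.60 to 56.9). These neighbours gave the highest and the lowest fold of the 9 regions with double-knockout reads, and their intervals overlap widely. The difference between them is 1 read against 3 in the double knockout, and 67 against 41 in wild type.

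Pim1, the STAT3 target kinase, had the most reads of the 4 genes. Its first region (chromosome 17, 29490808 to 29491092, transcript NM_008842) was annotated by the authors as 5'UTR, with 49 reads against 1 (40.4-fold, 6.92 to 1628). The second (29491321 to 29491623) covered coding exon and intron, with 157 against 7 (18.5-fold, 8.77 to 46.8), the highest count of the 10 in either genotype. The third (29494651 to 29494949) crossed from coding sequence into the 3'UTR, with 105 against 3 (28.9-fold, 9.61 to 142). Wild-type reads per base were 0.172, 0.518 and 0.351 from 5' to 3'. The signal of Pim1 thus lay at both ends of the gene, in regions that add up to 887 bases, and the one just after the start was the densest of the 10 regions.

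The start of Pim1 is placed differently by the 2 annotations at hand. The deposited distance of -95 bases puts the authors' transcription start at base 29491045, so that 237 of the region's 285 bases lie before it. RefSeq GRCm38.p6 has a Pim1 start at base 29490785, which is 260 bases earlier and puts the whole region inside the gene. The bases that the region shares with the RefSeq start window are shown because they are the 5' end of this region in the RefSeq transcript (chr17:29490808-29490834, GRCm38.p6, plus strand, bases 24 to 50 after the RefSeq start, from RefSeq).

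Pim1 5'UTR stretch: cggaggaggctggaggggagtcggcag

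Of these 27 bases 16 are G and 4 are C. The letters GGAC, the core of the sequence that the m6A writer prefers, were searched on the transcript strand and occurred 0 times in this stretch, so no letter is in capitals. The same 27 positions held GGAC in 10.5% of 32544 RefSeq start windows. The remaining 258 bases of the region lie past the window and were not searched.

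Grb2, the adaptor that links receptors to Ras, had 1 region, and it lay outside the gene. The authors called the region (chromosome 11, 115712241 to 115712477) upstream and gave it a distance of -3762 from the start of transcript NM_008163, which is read from the minus strand. It had 66 reads against 3 (18.1-fold, 5.94 to 90.2) and 0.278 wild-type reads per base. In RefSeq GRCm38.p6 it overlapped 0 genes: 3643 bases separated it from Grb2 on one side and 10178 bases from the non-coding gene Gm42096 on the other. Which transcript gave these reads was not tested, so whether they belong to the Grb2 mRNA is not known here. No listed region lay within the RefSeq extent of Grb2.

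**Figure D2:**
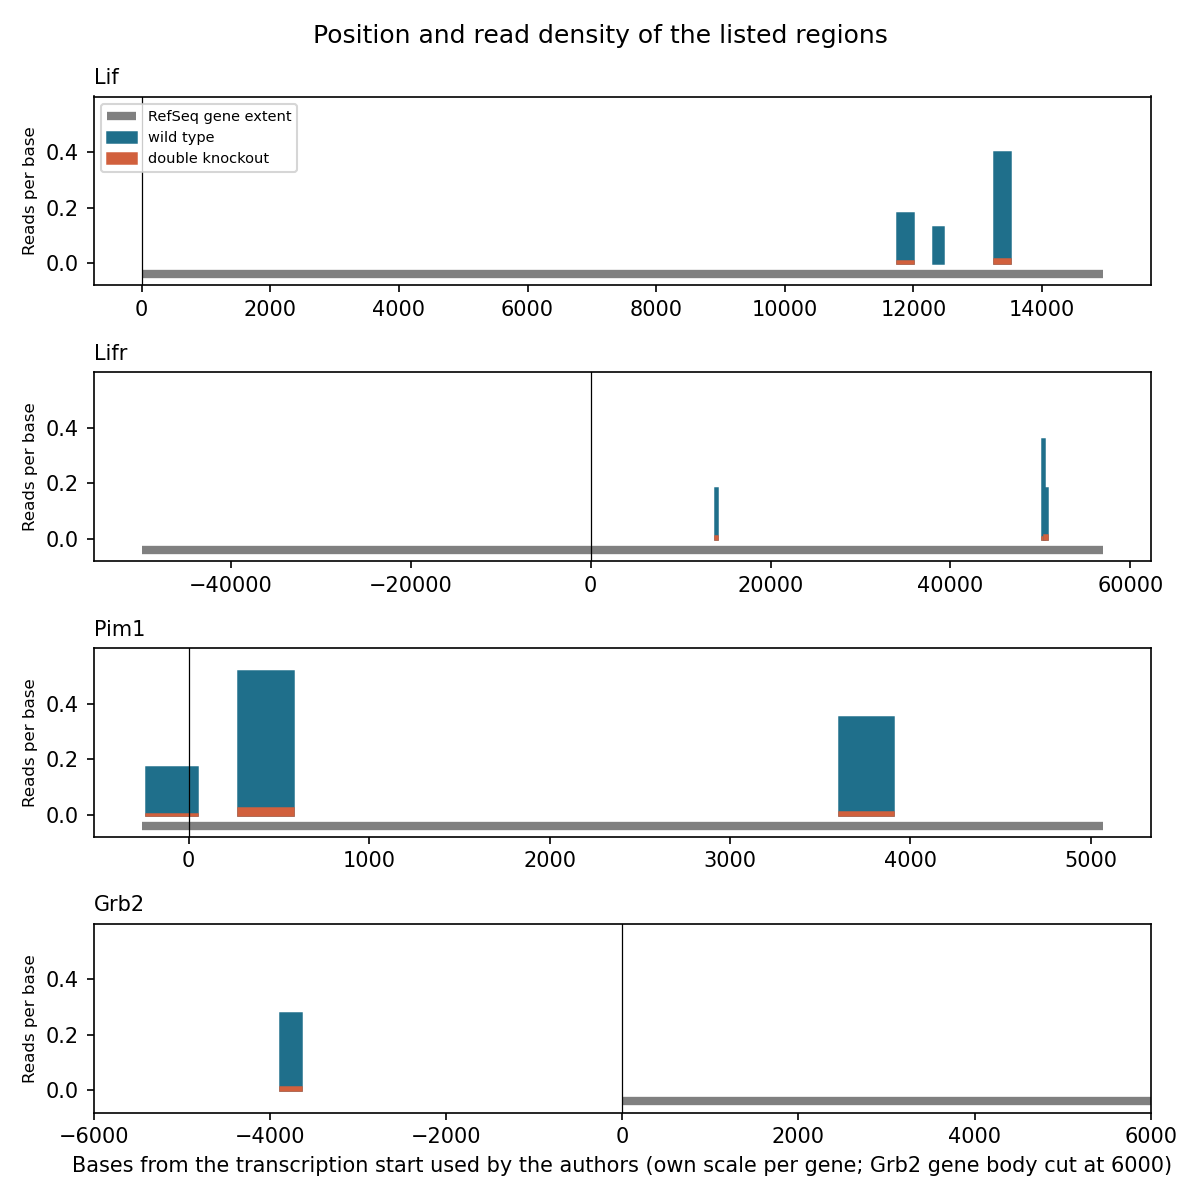
Read density (y axis, reads per base) of each listed region against its distance in bases from the authors' transcription start (x axis, own scale per gene), wild type in blue and double knockout in orange, 1 library each. Grey bars give the RefSeq gene extent; the regions of Lif sit at its 3' end, those of Pim1 at both ends, and that of Grb2 at -3762.

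Lif, Lifr and Pim1 each had a region that crosses from coding sequence into the 3'UTR, where the stop codon lies. Among all 3882 listed genes 7.96% had such a region, and among the 246 genes with exactly 3 listed regions 19.9% did. Having 3 regions was itself uncommon: 13.1% of listed genes had 3 or more and 69.7% had 1. In the 3 stop codon regions the counts were 45 against 2 for Lif, 41 against 3 for Lifr and 105 against 3 for Pim1. The 267 regions labelled as coding exon and 3'UTR had a median fold of 12.4 with zeros at the floor (quartiles 8.14 and 21.4), so Lif lay inside that middle range, Lifr also inside it at 11.3, and Pim1 above it at 28.9.

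Summed over the listed regions of each gene, the folds of the 4 genes were close to each other. Lif had 169 reads against 6 (23.2-fold, 10.5 to 64.2). Lifr had 150 against 6 (20.6-fold, 9.25 to 57.1). Pim1 had 311 against 11 (23.3-fold, 12.9 to 47.2). Grb2, with its single region, stayed at 66 against 3. All 4 intervals overlap. Within Lifr alone, single regions had ranged from 11.3-fold to 55.3-fold, and the Lif sum includes the region without double-knockout reads.

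The 4 genes together had 696 reads against 26, a 22.1-fold difference with an interval of 14.9 to 34.0. All listed regions together had 573971 against 27072, which is 17.5-fold (17.3 to 17.7). Since the genes were picked for the size of their change, these folds stand side by side as a description, and no comparison with the table is drawn from them.

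**Figure D3:**
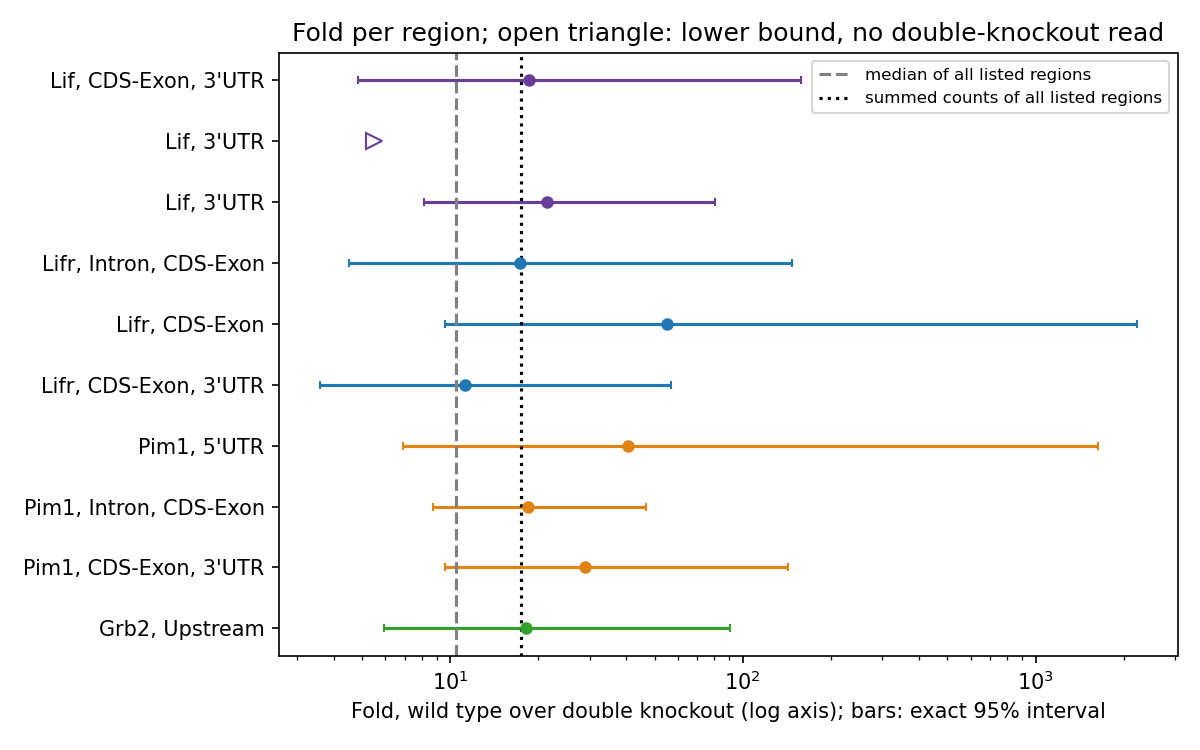
Fold of wild type over double knockout (x axis, log scale) for each of the 10 regions, with exact 95% intervals of counting error. The open triangle is the fold of 5.50 at the floor of 3 reads, for the Lif region without a double-knockout read. The title calls it a lower bound, but its exact interval begins at 4.07. The dashed line is the median of all listed regions (10.4) and the dotted line the fold of their summed counts (17.5). The points with double-knockout reads run from 11.3 to 55.3, with wide intervals.

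Per base of listed region, wild-type reads were highest in Pim1 (0.351, interval 0.313 to 0.392), followed by the region upstream of Grb2 (0.278, 0.215 to 0.354), Lif (0.255, 0.218 to 0.296) and Lifr (0.233, 0.197 to 0.273). The interval of Pim1 lay above those of Lif and Lifr, whereas that of Grb2 overlapped its neighbours on both sides. Lif and Lifr did not differ beyond counting error. All listed regions together had 0.393 reads per base, above each of the 4, with a median of 0.219 per region. These densities describe listed regions and not whole transcripts.

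**Figure D4:**
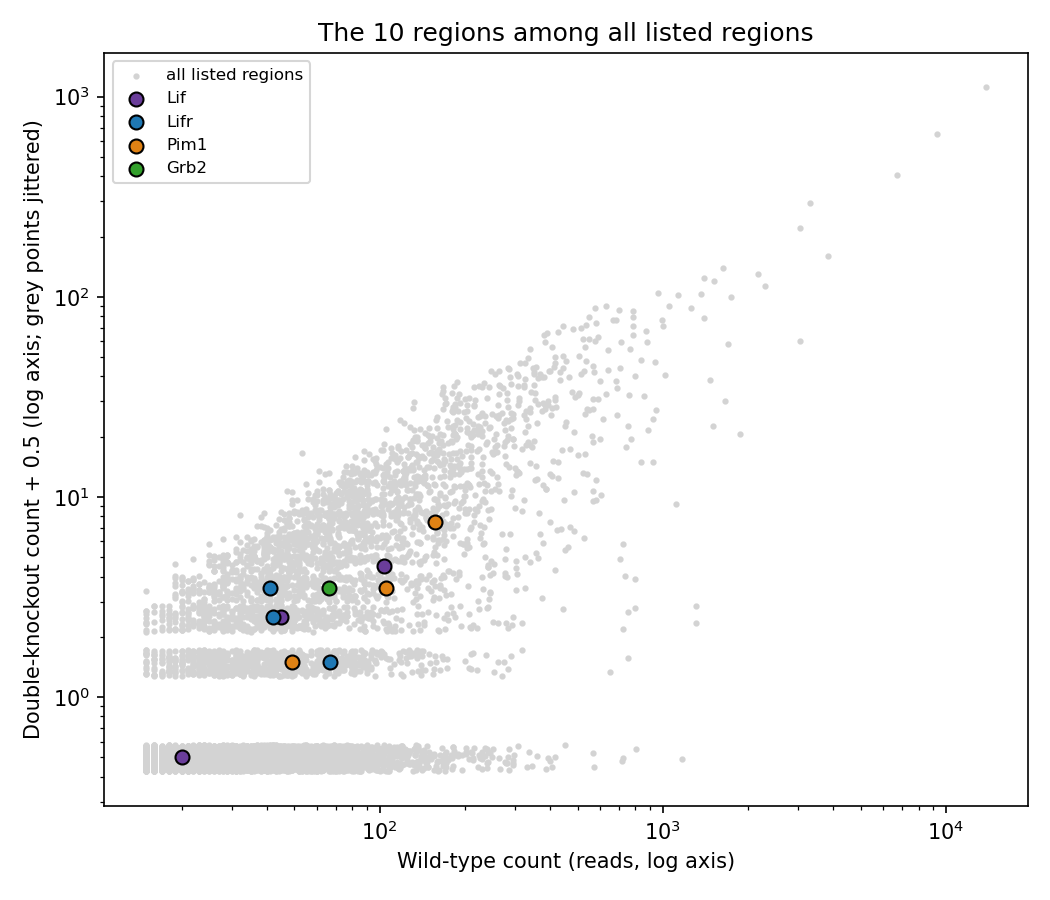
Wild-type count (x axis, log scale) against double-knockout count plus 0.5 (y axis, log scale) for all 6697 listed regions in grey, jittered vertically, with the 10 regions of Lif, Lifr, Pim1 and Grb2 in colour, 1 library per genotype. The coloured points fall within the grey cloud, 1 of them in the band of regions with 0 double-knockout reads.

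For each gene the deepest region is the one with the highest mean of both counts. By the 2 counts of that region, the genes nearest to Lif among all listed genes were Flywch1 (104 against 4, the same pair of counts) and Ptger1 (106 against 4). Nearest to Pim1 were Frmpd1 (159 against 7) and Kcnip1 (152 against 7). For Lifr 3 genes were equally near, among them 1700020O03Rik and Cyp4x1 with 66 against 1 each, and Csnk1d and Pura had the same counts as the Grb2 region, 66 against 3. Likeness was the distance between log2 counts, and it rests on 2 libraries.

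Of 68 genes of the LIF pathway, 21 were listed and 13 of these were lower by at least 10-fold in their deepest region, against 55.6% of all listed genes. Without Lif, Lifr, Pim1 and Grb2 it was 9 of 17. The share of all RefSeq genes that were listed was not computed. Nothing is therefore read from how many genes of the list, or of a role below, were listed. The median fold of the 21 was 11.6, against 11.1 over all listed genes, with zeros at the floor in both. A double-knockout count of 0 was found in 6 of the 21, against 46.2% of all listed genes. On the log2 scale of double knockout over wild type, with 0.5 added to both counts and no floor, the median was -4.11 for the list and -4.85 for all listed genes. The list's median change was thus slightly larger than the table's by the first measure and smaller by the second. By the first measure Lif, Lifr, Pim1 and Grb2 all lay above the list's median. By the second, Lif (-4.26) and Lifr (-5.21) had larger changes than the list's median. Pim1 (-4.11) was at that median and Grb2 (-3.97) had a smaller change.

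Beside Lif, the only listed ligand of 7 was Cntf, a neurotrophic cytokine of the same family. It entered through an upstream region with 25 reads against 0 (6.87-fold at the floor, interval from 5.19). Among 6 receptor genes, Il6st, which encodes the shared chain gp130, joined Lifr with 53 against 3 in a coding exon (14.6-fold, 4.72 to 72.9). The 2 chains of the LIF receptor therefore both had a listed coding region, with overlapping intervals. Of 7 kinase and STAT genes only Stat5b was listed, with 394 against 28 in an intron (11.6-fold, 7.91 to 17.7), while Stat3, Jak1, Jak2 and Tyk2 were not in the table used here.

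In the adaptor and MAP kinase branch 4 of 16 genes were listed. The phosphatase gene Ptpn11, whose product recruits Grb2 to the receptor, had 87 against 8 in its deepest region (8.97-fold) and 246 against 16 over 4 regions (12.7-fold, 7.65 to 22.5). In the PI3K branch, 3 of 8 genes were listed, among them the kinase gene Akt1 (38 against 0) and the regulatory subunit gene Pik3r2 (48 against 6, upstream). In this branch as in that of the adaptors, 1 gene entered through an upstream region, Pik3r2 here and Grb2 there.

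The inhibitors of the pathway had 2 of 8 genes listed. Socs3, the feedback inhibitor of LIF signalling that STAT3 induces, had 2 regions in its 3'UTR, with 53 against 7 (6.24-fold, 2.83 to 16.3) and 55 against 1 (45.4-fold, 7.81 to 1824). The first has the higher mean count and stands for the gene in the counts above, which places Socs3 under 10-fold. The sums were 108 against 8 over both (11.1-fold, 5.45 to 26.4). Ptpn1, a tyrosine phosphatase gene, had 76 against 0 across its stop codon (20.9-fold at the floor, interval from 16.6). Over 3 regions it had 163 against 3 (44.8-fold, 15.1 to 220). Summed over regions, Socs3 and Pim1, both targets of STAT3, had overlapping intervals.

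Of the 16 target genes 7 were listed. Of the 7, 6 were lower by at least 10-fold, against 55.6% of all listed genes. Pim1, picked for the size of its change, is 1 of the 6, and nothing is read from this count. Pim3, the relative of Pim1, had 78 against 6 in its deepest region (10.7-fold, 4.71 to 30.1). Over its 3 regions Pim3 had 158 against 6 (21.7-fold, 9.76 to 60.1), beside 23.3-fold for Pim1, and Pim2 was not listed. Dusp6, a phosphatase that turns off MAP kinases, had 112 against 0 (30.8-fold at the floor, interval from 24.6) and 277 against 2 over 4 regions. Spry2, an inhibitor of receptor signalling to Ras, had 107 against 1 (88.3-fold, 15.5 to 3518), and its relative Spry4 had 88 against 6 (12.1-fold, 5.34 to 33.9). The transcription factor gene Myc had 233 against 6 and 379 against 10 over 4 regions (31.3-fold, 16.8 to 65.7). Junb, an early response transcription factor, was the 1 target under 10-fold, with 273 against 33 in its deepest region (6.82-fold, 4.74 to 10.1). The interval of Junb lay below those of Myc (14.5 to 88.2) and Spry2 for the deepest region of each. The regions of Junb differed, however. A neighbouring coding region had 236 against 4 (48.7-fold, 18.8 to 180), which overlaps both. The remaining regions were at 14.3-fold and 16.8-fold. Over the 4 regions of Junb the sums were 674 against 46 (12.1-fold, 8.96 to 16.7). The targets Klf4, Klf5, Tfcp2l1 and Gbx2, which act in naive pluripotency, were not listed.

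**Figure D5:**
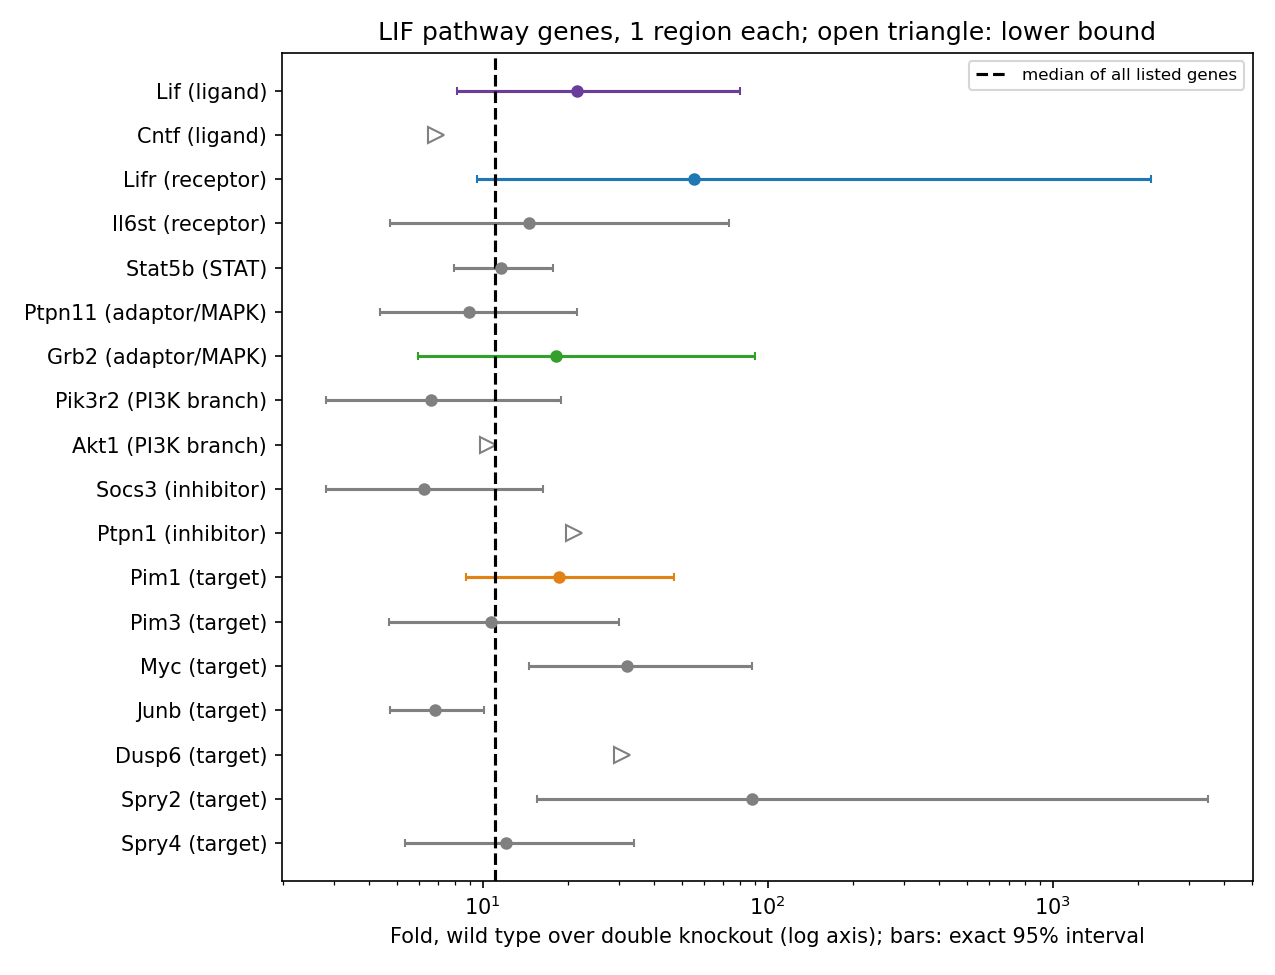
Fold of wild type over double knockout (x axis, log scale) in the deepest region of 18 of the 21 listed LIF pathway genes (y axis, ordered by role), with exact 95% intervals of counting error. Lif, Lifr, Pim1 and Grb2 are coloured, open triangles are lower bounds for genes with 0 double-knockout reads, and the dashed line is the median of all listed genes (11.1).

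The cell type labels could not be checked here, because every listed region had a higher count in wild type. Markers that entered the table are only described. Of 15 pluripotency markers 5 were listed (Esrrb, Lin28a, Pou5f1, Sall4 and Utf1, summing to 356 reads against 23 over the deepest region of each), with 1 of them at 0 in the double knockout. Nanog, Sox2 and Zfp42 were not in the table used here, which does not show that their mRNA was absent. Of 10 fibroblast markers 4 were listed (225 against 4, with 3 at 0), and of 10 primitive endoderm markers 4 (312 against 27, with 0 at 0). Among all listed genes 46.2% were at 0 in their deepest region. Wild-type counts began at 15 in the listed fibroblast markers and at 59 in the endoderm markers. Nothing is read from these few zeros. Some genes of both other marker lists thus had reads in wild type, which does not show that those cell types were present. The part of the cells' state in the values of Lif, Lifr, Pim1 and Grb2 was not tested.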

How the data were processed

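The deposited table, 7562 rows holding 6697 distinct regions, gives whole-number counts per region for each genotype, and per the file headers no normalization is stated. Bowtie2, DESeq and the build mm9 are named per the submitters' processing notes, without role; the peak caller and the filter are not stated in these notes, the labels or the headers. The deposited enrichment factor is a ratio, wild type over double knockout times 0.825, and the deposited read density is a signal, wild-type count per base. Of 6035 pairs of region and gene whose identifier matched RefSeq GRCm38.p6, 6026 (99.9%) were no more than 5000 bases from the gene, so coordinates are taken as GRCm38.

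Folds, exact intervals and log2 values (pseudocount 0.5) were computed with Python 3.11.15, SciPy 1.17.1 and pandas 2.3.3. The intervals were run on simulated independent Poisson counts. That is the model they assume, so the simulation cannot show how well they hold for real reads. Folds for a count of 0 use a floor of 3 reads, slightly under the upper limit of 3.69 that such a count allows. The exact intervals of these regions therefore begin below that fold. Reads without molecular identifiers are not independent molecules. With 1 library per group no p-value was computed, and library totals were not used here.

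The genes and lists were chosen with earlier results of these data known. Named were Lif, Lifr, Pim1 and Grb2 with every region, the listed genes of the pathway list (25 or fewer being listed), some of which are not reported here, and the 2 genes nearest in log2 counts. The search for GGAC was added later, in place of a planned search of whole regions that needs a genome. Alternatives covered the constant, the pseudocount, the floor, the choice of region and low counts.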

Additional observations from a re-analysis of the deposited data

How the results depend on the processing

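All 56 alternatives tried on the 10 regions and on the 1 deepest region per gene (no constant, pseudocounts of 0.25 and 2, summed or averaged regions, exonic regions, and, chosen after seeing the data, no upstream or 5'UTR regions) stayed within the counting interval of the reported value. Grb2 has no exonic region and drops out of both exonic settings. Not all of the 56 are separate checks. For the deepest regions, the constant and the pseudocounts repeat values already obtained for the same regions among the 10. The exonic settings chose the same region again for Lif, Lifr and Pim1. Summing or averaging left the single Grb2 region as it was, so these values could not move. The median log2 value of the LIF pathway list (-4.11) was -3.44 with a pseudocount of 2, which enters the value directly. The number of its genes at least 10-fold lower (13) stayed within 1.5 times. It was 16 of 21 with summed regions (59.5% of all listed genes at that setting), 12 of 17 at or above the median mean count (74.7% of all), and at most 19 of 21, with the mean of log2 values over regions (82.0% of all). The share of all regions at least 10-fold lower (52.5%) was 64.3% without the constant, 75.2% at or above the median mean count and 82.5% with a floor of 1 read. For the count filter the cause was not tested. No paired analysis was possible because each group had 1 library. With 0 to 7 double-knockout reads per region, depth limits every fold here.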
